A study of Fukomys damarensis and Heterocephalus glaber and Mus musculus with 160 samples.

Results

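Liver-only primed enhancers are liver regions that carried the histone mark H3K4me1 without the marks of activity, and that showed none of the 3 measured marks in heart. They were chosen by peak positions alone, separately in 4 rodent species. Peaks of each tissue and mark that overlapped a peak of another animal by at least 50% of the shorter peak were merged into consensus regions, and a liver H3K4me1 region became a member when it overlapped no consensus region of liver H3K27ac, liver H3K4me3 or any heart mark by that share. The rule gave 134324 members among 403067 liver H3K4me1 regions. The naked mole-rat (Heterocephalus glaber) had 50030 of 118974, the Damaraland mole-rat (Fukomys damarensis) 41042 of 117048, the guinea pig 27002 of 90440 and the mouse 16250 of 76605.

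Enhancers are stretches of DNA that raise transcription of a gene from a distance. H3K4me1, a single methyl group on lysine of histone H3, is laid down at enhancers whether or not they are in use. H3K27ac, an acetyl group on the same histone, is found where enhancers and promoters are active, and H3K4me3 marks promoters. An enhancer with H3K4me1 and neither of the others is called primed: it is opened ahead of use, often by pioneer factors such as FOXA1, and can gain acetylation when a signal or another factor arrives. In liver, the factors CEBPA, FOXA1, HNF4A, HNF6 and the nuclear receptor partner RXRA bind many enhancers of metabolic genes. TBX5 is a factor of heart muscle.

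Chromatin immunoprecipitation followed by sequencing was carried out on liver and heart of untreated wild-type adults, with 99 histone libraries and 17 factor libraries. The naked mole-rats were males of 13 to 17 months, named NMR30, NMR31, NMR32, NMR34 and NMR35. The Damaraland mole-rats (DMR1, DMR2, DMR3, DMR4 and DMR6) had estimated ages of 36 or 48 months and were males except DMR6, a female. The guinea pigs were males of 2.3 months, and the mice were C57BL/6J males of 2 months. A further Damaraland mole-rat, DMR11, a male with an estimated age of 48 months, gave heart libraries only, and mouse hearts and livers came from different animals. The animal was the replicate, and 1 pool of 3 mice, which gave a heart library of each mark, counted as 1 replicate. Both tissues are mixtures of cell types, so a region marked in few cells and a region weakly marked in many cannot be told apart. No gene annotation of the builds was used here, so marker genes of liver and heart cells were not analysed here, and regions are named by position only.

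Liver H3K4me1 lists held 86486 to 180145 peaks each, from 5 naked mole-rats, 5 Damaraland mole-rats, 3 guinea pigs and 4 mice. Read depth was unknown. Several lists stood apart. The liver H3K4me3 list of NMR30 had 253457 peaks against 27591 in the shortest list of that group, the Damaraland mole-rat had 2 liver H3K4me3 libraries, and heart H3K4me1 lists of the mouse ranged from 20521 to 129914 peaks. The longest of these, of mouse 33017, and the heart H3K4me1 list of DMR1, with 92143 peaks, carry a tag in their deposited names that the labels do not explain, so these lists may have been made differently from the others. Without the former there were 18562 members in mice, and without the latter 42491 in Damaraland mole-rats. Leaving out any 1 histone library moved the number of members to between 41330 and 53421 in naked mole-rats and to between 33910 and 43592 in Damaraland mole-rats. The same runs gave 18434 to 30325 in guinea pigs and 12380 to 18562 in mice.

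Members made up 42.1% of liver H3K4me1 regions in naked mole-rats, 35.1% in Damaraland mole-rats, 29.9% in guinea pigs and 21.2% in mice. Of the primed liver regions alone, 81.8%, 69.1%, 64.0% and 52.2% had no heart region in the same order of species. The number of heart H3K4me1 consensus regions against which they were screened differed as well: it was 39285, 83536, 69396 and 77735. Species were not tested against each other, since each had its own assembly and libraries, and the part of the heart lists in these shares was not tested. Together the members covered 40.7 Mb in naked mole-rats, 38.0 Mb in Damaraland mole-rats, 26.7 Mb in guinea pigs and 12.3 Mb in mice.

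In mice, the only species here with chromosome-scale names, members lay on every chromosome. Their share of the liver H3K4me1 regions of an autosome ran from 18.9% on chromosome 15 to 23.5% on chromosome 14, with a median of 21.2%. The X chromosome held 238 members, 24.8% of its 958 liver H3K4me1 regions. Counted per megabase up to the last histone peak, it was sparse, at 1.40 members per Mb against 5.34 on chromosome 3 and 9.13 on chromosome 11, the autosomes with the lowest and highest density. This was not particular to members: those autosomes held 3814 and 5559 liver H3K4me1 regions, against the 958 of the X chromosome. All 3 liver H3K4me1 regions of the Y chromosome were members.

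The members were narrow. Their median width was 660 bases in naked mole-rats, 764 in Damaraland mole-rats, 842 in guinea pigs and 646 in mice. Liver-only active enhancers, the regions with H3K4me1 and H3K27ac but no H3K4me3 and no heart region, had medians of 1185, 1358, 1470 and 980 bases. Members were thus 0.557, 0.563, 0.573 and 0.659 times as wide at the median. They were also seen in fewer libraries, and mole-rat widths at equal library support are given below. Against liver primed enhancers that were also found in heart the ratios were 0.834, 0.820, 0.765 and 0.766. The widest member spanned 9845 bases, in Damaraland mole-rats, and between 1.52% of members in mice and 5.41% in guinea pigs reached 2 kb. These widths and the folds below come from the peaks that chose the regions and are given as a description with no test.

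The H3K4me1 enrichment of members was also lower than that of liver-only active enhancers, in each library. Fold is the authors' enrichment over background at a peak, read here at the strongest H3K4me1 peak with its summit in the region. In naked mole-rats, the median fold over members was 5.61 in NMR30, 4.83 in NMR31, 4.95 in NMR32, 5.12 in NMR34 and 5.20 in NMR35, and in liver-only active enhancers it was 6.90, 6.15, 6.29, 6.78 and 6.64. The highest library value of members lay below the lowest of active enhancers. Over all peaks of the same lists the median fold was 5.32, 5.12, 5.12, 5.12 and 5.31. Members thus lay above their list in NMR30, level with it in NMR34 and below it in the others. In the other species members lay below the median of their list, except in mouse 85924.

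In Damaraland mole-rats, members had medians of 4.60 in DMR1, 4.20 in DMR2, 4.78 in DMR3, 4.72 in DMR4 and 4.82 in DMR6, against 5.90, 6.04, 5.65, 6.38 and 5.95 for active enhancers. In guinea pigs the 3 libraries gave 4.90, 4.53 and 4.50 for members and 6.68, 6.00 and 5.55 for active enhancers. In both species the libraries of the 2 kinds of region did not overlap.

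In mice, members had median folds of 4.89 in mouse 85920, 4.75 in 85921, 4.94 in 85923 and 6.86 in 85924, and active enhancers 5.74, 5.89, 5.93 and 9.42. Mouse 85924 stood above the other animals for both kinds of region, so the ranges overlapped across animals while members were lower within each. The mean log2 ratio of members to active enhancers was -0.35 ± 0.04 in naked mole-rats (SD, n = 5), -0.37 ± 0.11 in Damaraland mole-rats (n = 5), -0.39 ± 0.07 in guinea pigs (n = 3) and -0.32 ± 0.10 in mice (n = 4). Members had a lower median fold and a lower median peak width than active enhancers in 17 of 17 libraries, and than primed enhancers shared with heart in 17 of 17.

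**Figure D1:**
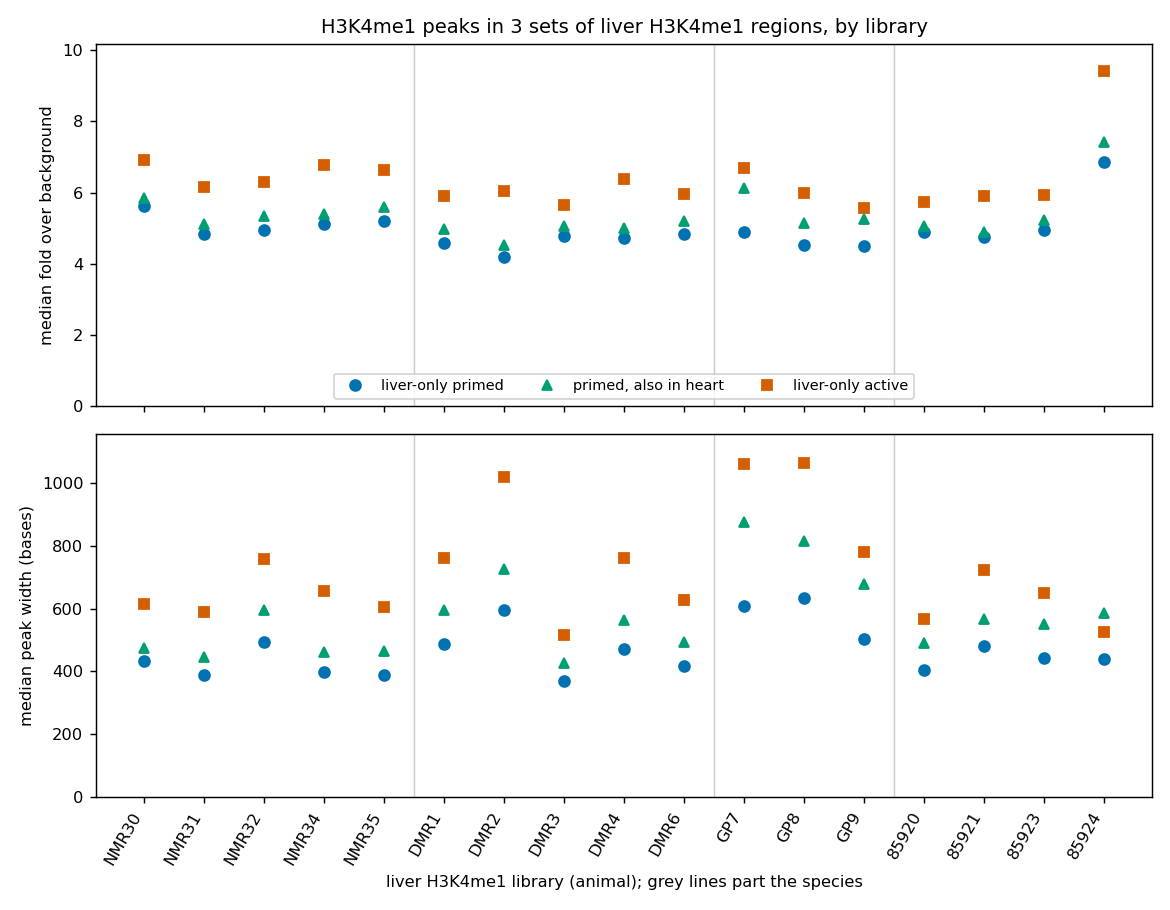
Median H3K4me1 fold over background (top) and median H3K4me1 peak width in bases (bottom) in each of the 17 liver H3K4me1 libraries, for liver-only primed enhancers (circles), primed enhancers also found in heart (triangles) and liver-only active enhancers (squares). Circles lie lowest in every library of both panels, and mouse 85924 has the highest folds.

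Members were found in fewer animals than active enhancers. A peak of all 5 libraries overlapped 23.4% of members in naked mole-rats and 19.5% in Damaraland mole-rats, against 64.9% and 63.2% of liver-only active enhancers. The guinea pig, with 3 libraries, had 53.7% of members and 83.8% of active enhancers in all of them, and the mouse, with 4, had 22.0% and 54.8%. Members supported by 2 libraries numbered 18264 in naked mole-rats, 15332 in Damaraland mole-rats, 12491 in guinea pigs and 7691 in mice. Width moved with support. In naked mole-rats the median width of members was 440 bases with 2 libraries, 623 with 3, 834 with 4 and 1283 with 5. In Damaraland mole-rats it was 521, 737, 1006 and 1413. Liver-only active enhancers with the same support had 462, 637, 855 and 1593 bases in naked mole-rats and 549, 749, 1021 and 1795 in Damaraland mole-rats. At equal support the medians were thus close with 2, 3 or 4 libraries, and members were clearly narrower with 5. A merged region grows with the number of peaks in it, and the part of merging in these widths was not tested.

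Many members carried another mark in at least 1 library while overlapping no consensus region of it by the share of the rule. The share over all liver H3K4me1 regions was not measured, so nothing particular to members can be read from these values. A peak of liver H3K27ac in at least 1 library overlapped 26.2% of members in naked mole-rats, 20.98% in Damaraland mole-rats, 24.3% in guinea pigs and 19.4% in mice. In exactly 1 library it did so for 20.5%, 17.2%, 20.4% and 17.2% of members. Peaks of heart H3K4me1 overlapped 14.8%, 18.3%, 18.6% and 18.7%. Liver H3K4me3 peaks overlapped 11.1% of naked mole-rat members, with the NMR30 list alone overlapping 8.68% of members, and 1.02%, 0.241% and 0.283% in the other species. Members with no peak of the 5 other tissue and mark combinations in any library numbered 27443 in naked mole-rats (54.9%), 25204 in Damaraland mole-rats (61.4%), 16027 in guinea pigs (59.4%) and 10055 in mice (61.9%).

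Few members sat at the edge of the rule. In naked mole-rats 91.8% of members touched none of the excluding regions, as did 92.7% in Damaraland mole-rats, 89.0% in guinea pigs and 92.4% in mice. Naked mole-rat members that overlapped such a region by 40% to under 50% of the shorter had a median width of 845 bases and a mean library-median fold of 5.52, and the regions left out with an overlap of 50% to under 60% had 865 bases and 5.58. In Damaraland mole-rats the values were 1018 bases and 4.95 just inside and 1001 bases and 5.00 just outside. They were 882 bases and 4.89 against 891 and 5.03 in guinea pigs, and 824 bases and 5.51 against 877 and 5.65 in mice. Regions on either side of the threshold were thus close to each other, and wider than the median member.

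Liver active enhancers, here all H3K27ac consensus regions with H3K4me1 and without H3K4me3, were mostly several kilobases away. The median distance from a member to the nearest one on the same scaffold was 13122.5 bases in naked mole-rats, 12595 in Damaraland mole-rats, 14311 in guinea pigs and 16655 in mice. Between 8.48% of members in guinea pigs and 11.5% in mice lay within 1 kb of an active enhancer, and between 39.9% in mice and 44.3% in Damaraland mole-rats lay within 10 kb. In naked mole-rats 17.2% were beyond 100 kb or had no active enhancer on their scaffold, in Damaraland mole-rats 12.9%, in guinea pigs 13.0% and in mice 17.5%.

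Heart-only primed enhancers, chosen in heart by the mirror of the same rule, lay farther from liver active enhancers. Their medians were 24817 bases in naked mole-rats, 22365 in Damaraland mole-rats, 24024.5 in guinea pigs and 39442.5 in mice, and 2.80% to 4.31% of them lay within 1 kb. Primed enhancers shared with heart had medians of 10539.5, 12290, 17575.5 and 17792 bases, lower than those of members in the mole-rats and higher in guinea pigs and the mouse. The shared regions stood out by promoters instead: 21.2%, 21.2%, 30.0% and 20.1% of them lay within 1 kb of a liver H3K4me3 region, against 6.83%, 3.51%, 5.60% and 4.49% of members. Positions of marks entered the rule, so these distances carry no test.

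**Figure D2:**
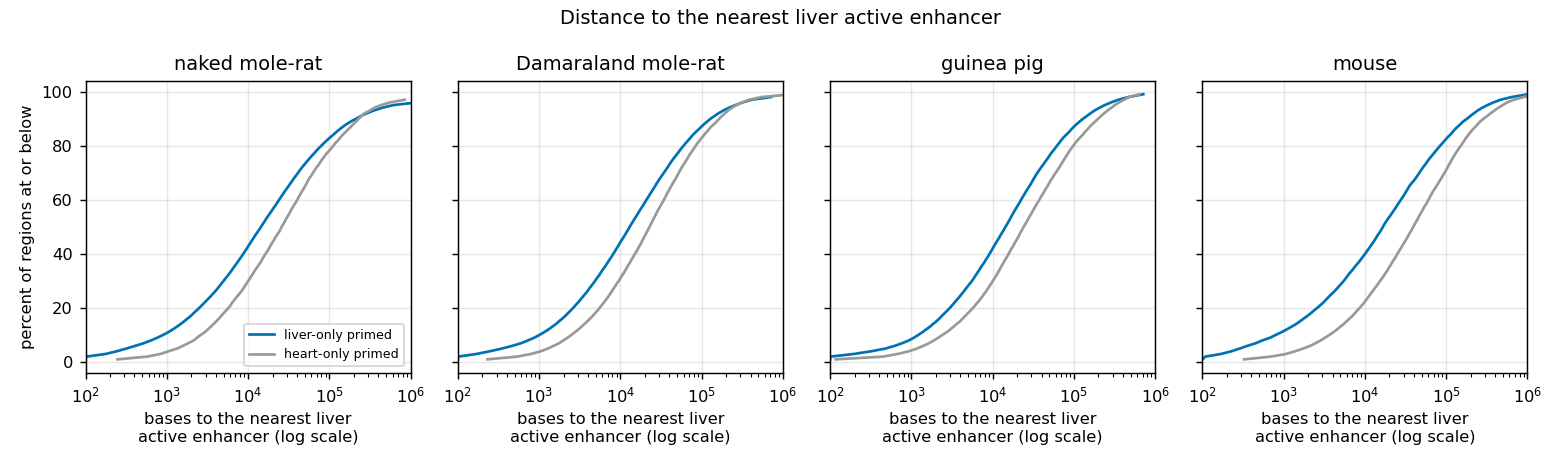
Cumulative percent of regions (vertical axis) within a given distance in bases (horizontal axis, log scale) of the nearest liver active enhancer, in 4 species. The curve of liver-only primed enhancers lies left of that of heart-only primed enhancers over most of the range, with medians of 12595 to 16655 bases against 22365 to 39442.5.

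H3K4me1 strength by this distance ranged over less than 1 unit of fold in each species. In naked mole-rats the mean of the library-median folds was 5.08 for members within 1 kb of an active enhancer, 5.15 at 1 to 10 kb, 5.15 at 10 to 100 kb and 5.11 beyond or with none on the scaffold. The Damaraland mole-rat values were 4.63, 4.62, 4.62 and 4.60. The guinea pig had 4.52, 4.63, 4.67 and 4.69, and the mouse 5.23, 5.30, 5.38 and 5.46. Read within each library, the farthest class minus the nearest gave a mean difference in median fold of 0.03 ± 0.0828 in naked mole-rats (SD, n = 5), -0.03 ± 0.0447 in Damaraland mole-rats (n = 5), 0.163 ± 0.0901 in guinea pigs (n = 3) and 0.230 ± 0.0865 in mice (n = 4). The farthest class was the higher in 3 of 3 guinea pig and 4 of 4 mouse libraries, but in 2 of 5 libraries of naked mole-rats and 1 of 5 of Damaraland mole-rats. Widths were highest at 1 to 10 kb in the 4 species, with medians of 683, 807, 883 and 670 bases, and lower within 1 kb, with 624, 733, 770 and 604. Members also lay near each other: the next member was at a median distance of 4398 bases in naked mole-rats, 6512 in Damaraland mole-rats, 10409 in guinea pigs and 14178 in mice, following the order of their numbers.

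Binding of liver factors was measured in 2 naked mole-rats (NMR30 and NMR35) and 2 Damaraland mole-rats (DMR1 and DMR4), whose livers also gave histone libraries. The factor peaks played no part in choosing the members, so they could be tested. CEBPA is a factor of hepatocyte metabolism, and its peaks overlapped 15.8% of members in NMR30, 11.4% in NMR35, 5.82% in DMR1 and 19.2% in DMR4. Over all liver H3K4me1 regions of the species the CEBPA shares were 21.7%, 16.8%, 9.75% and 26.1%. In the 4 animals members lay below that background.

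FOXA1, a pioneer factor able to bind closed chromatin, had peaks in 4.01% of members in NMR30, 6.61% in NMR35, 3.70% in DMR1 and 2.75% in DMR4, with backgrounds of 6.57%, 10.0%, 6.39% and 5.48%. RXRA, the partner of many nuclear receptors, overlapped 2.45%, 5.05%, 3.59% and 10.6% of members in the same animals, with backgrounds of 5.99%, 11.8%, 9.70% and 22.9%. The lists differed in length, from 19398 peaks for FOXA1 in DMR4 to 122941 for CEBPA in NMR30, so factors were not ranked against each other.

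HNF4A, a nuclear receptor central to hepatocyte identity, overlapped 1.26% of members in NMR30, 4.14% in NMR35 and 5.99% in DMR4, with backgrounds of 2.39%, 8.34% and 14.5%. HNF6, a factor of hepatocytes and bile ducts, was measured in DMR1 only and overlapped 7.79%, with a background of 9.29%. Its log2 ratio to liver-only active enhancers, -0.87, was the nearest to 0 of the 16 liver libraries. TBX5 from the heart of DMR6 overlapped 4.66% of members, with a background of 7.99%. It overlapped 4.66% of heart-only primed enhancers and 7.67% of primed enhancers shared with heart. Of its summits, 0.05002 per kilobase fell in members and 0.0497 in liver-only active enhancers. The density was higher in heart-only primed enhancers, at 0.0638, and in those shared with heart, at 0.0645.

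Members held fewer factor peaks than liver-only active enhancers. The active set had CEBPA shares of 32.4% in NMR30, 26.4% in NMR35, 17.5% in DMR1 and 41.7% in DMR4, and the members' share was lower in 16 of 16 liver libraries. Averaged over CEBPA, FOXA1 and RXRA, the log2 ratio of shares was -1.42 in NMR30, -1.41 in NMR35, -1.84 in DMR1 and -1.56 in DMR4, a mean of -1.56 ± 0.20 (SD, n = 4), or 0.339 times. The exact sign-flip test over these animals, two-sided, gave p = 0.13 (adjusted p = 0.13 over 3 comparisons), the smallest p that 4 animals allow, so the threshold of 0.05 could not be reached. Width moves with this gap: counted as summits per kilobase of region, the mean log2 ratio was -0.79, still lower in 16 of 16 libraries.

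Against heart-only primed enhancers the liver factors were found more often in members. The rule left heart-only primed enhancers without any liver mark in the consensus, while members carry liver H3K4me1. The part of that choice in this gap was not tested. CEBPA peaks overlapped 3.46% of heart-only primed enhancers in NMR30, 2.59% in NMR35, 0.678% in DMR1 and 1.33% in DMR4. The mean log2 ratio over the 3 factors was 1.82 in NMR30, 2.25 in NMR35, 2.69 in DMR1 and 3.40 in DMR4, with a mean of 2.54 ± 0.67 (SD, n = 4), or 5.81 times. The exact sign-flip p was 0.13 (adjusted p = 0.13). Members were higher in 16 of 16 libraries, but HNF4A of NMR30 barely so, at 1.26% against 1.24%, and per kilobase that library turned the other way, with 0.0148 summits in members and 0.0167 in heart-only primed enhancers.

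Compared with primed enhancers shared with heart, members had the larger share of factor peaks in 11 of 16 libraries. The mean log2 ratio over the 3 factors was 0.21 in NMR30, 0.38 in NMR35, 0.91 in DMR1 and 0.60 in DMR4, a mean of 0.53 ± 0.30 (SD, n = 4), with an exact sign-flip p of 0.13 (adjusted p = 0.13). CEBPA and FOXA1 were higher in members in all 8 of their libraries. The exceptions were RXRA of NMR30 (2.45% in members against 2.78%) and of NMR35 (5.05% against 6.09%) and HNF4A of NMR30 (1.26% against 1.52%), NMR35 (4.14% against 4.33%) and DMR4 (5.99% against 6.99%). Counted as summits per kilobase, members were higher in 16 of 16 libraries and the mean log2 ratio was 0.85.

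**Figure D3:**
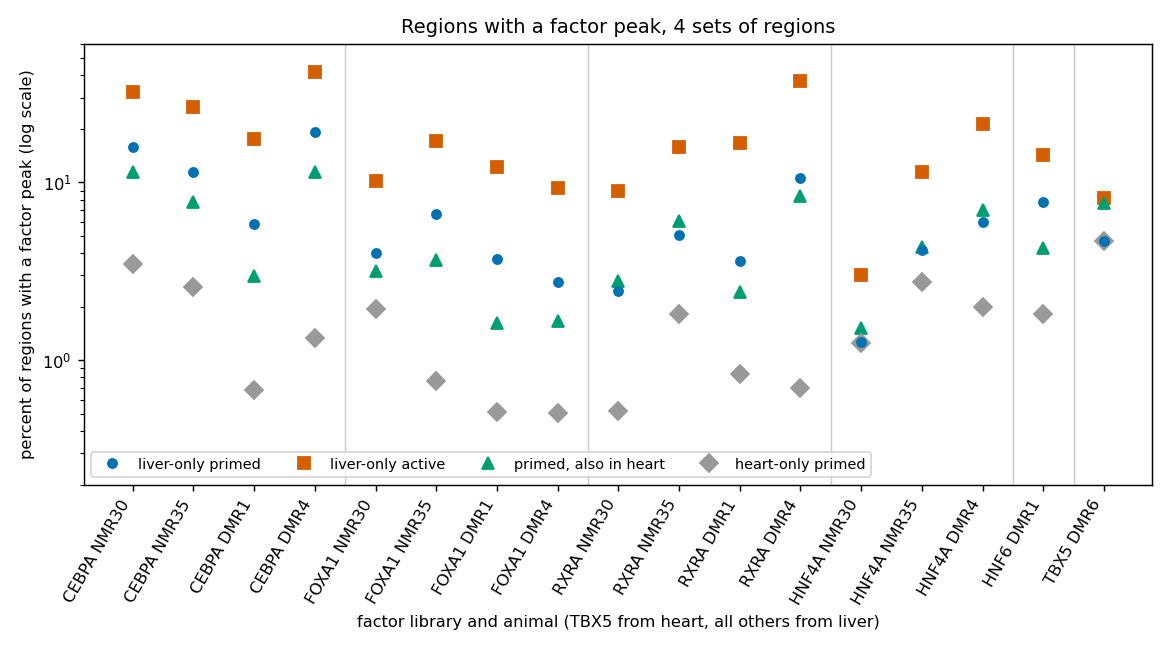
Percent of regions overlapped by a peak of each factor library (vertical axis, log scale) for liver-only primed enhancers (circles), liver-only active enhancers (squares), primed enhancers also found in heart (triangles) and heart-only primed enhancers (diamonds), in 17 libraries of the mole-rats. Squares lie above circles throughout, and circles lie above diamonds in the 16 liver libraries but coincide with them for TBX5, at 4.66%.

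Most members had no peak of any measured liver factor. In naked mole-rats 35309 members (70.6%) were free of peaks in its 8 liver factor libraries and 14721 (29.4%) had at least 1. In Damaraland mole-rats 26357 (64.2%) had none and 14685 (35.8%) at least 1. Over all liver H3K4me1 regions the share with at least 1 was 38.9% and 46.2% in these species, so the members lay below that background, and in liver-only active enhancers it was 53.6% and 66.1%. Members with a peak in all 8 libraries numbered 21 in naked mole-rats (0.0420%) and 8 in Damaraland mole-rats (0.0195%), with backgrounds of 0.199% and 0.182%. Within an animal, peaks of all of CEBPA, FOXA1 and RXRA fell in 0.224% of members in NMR30, 0.426% in NMR35, 0.210% in DMR1 and 0.733% in DMR4, against 1.80%, 3.59%, 2.39% and 5.45% of liver-only active enhancers.

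The 2 animals of a species shared part of their bound members. This overlap was not measured over all liver H3K4me1 regions, so nothing particular to members can be read from it. For CEBPA in naked mole-rats, 3921 members were bound in both, which is 49.6% of those bound in NMR30 and 68.6% of those bound in NMR35. In Damaraland mole-rats 1804 were bound in both, 75.5% of those of DMR1 and 22.9% of those of DMR4, whose list was the longer. FOXA1 was shared at 1183 members (59.0% and 35.8%) in naked mole-rats and at 502 (33.1% and 44.5%) in Damaraland mole-rats. RXRA was shared at 637 (51.9% and 25.2%) and at 787 (53.4% and 18.1%), and HNF4A in naked mole-rats at 216 (34.3% and 10.4%).

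Members with a factor peak differed from those without one in the same direction across factors. Their median width was larger in 16 of 16 libraries, for CEBPA 906 against 629 bases in NMR30, 906 against 639 in NMR35, 1073 against 749 in DMR1 and 1036 against 716 in DMR4. Their median H3K4me1 fold in the same animal was also higher in 16 of 16, for CEBPA 6.12 against 5.42, 5.85 against 5.18, 4.98 against 4.54 and 5.11 against 4.58. Members seen in 5 H3K4me1 libraries were bound more often than those seen in 2, again in 16 of 16: CEBPA was at 27.3% against 8.97% in NMR30 and at 32.8% against 10.4% in DMR4. A wider region gives more room for an overlap, and the part of width in these differences was not tested.

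A trace of acetylation went with binding. Members with a liver H3K27ac peak in 1 or more single libraries were bound more often than members with none in 16 of 16 libraries. CEBPA peaks overlapped 20.5% of the former and 14.1% of the latter in NMR30, 15.3% and 10.0% in NMR35, 9.56% and 4.83% in DMR1, and 29.3% and 16.5% in DMR4. RXRA of DMR4 was at 19.1% and 8.31%. The part of region width and of library support in these differences was not tested either. Members with no other mark in any library were still bound by CEBPA at 14.4%, 10.2%, 5.24% and 17.2%.

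Bound members lay farther from active enhancers than unbound ones in 15 of 16 libraries. For FOXA1 the median distances were 19007 against 12851 bases in NMR30, 23036 against 12595 in NMR35, 25312 against 12298 in DMR1 and 20837 against 12467 in DMR4. For CEBPA they were 18729.5 against 12186, 19463.5 against 12404.5, 19529 against 12258 and 16930 against 11745. The exception was HNF4A of NMR30, with 12665 against 13124. Members within 1 kb of an active enhancer were bound by CEBPA at 12.5% in NMR30, 8.79% in NMR35, 4.54% in DMR1 and 14.8% in DMR4, and members beyond 100 kb or with none on the scaffold at 20.2%, 15.0%, 8.24% and 22.7%. The far members had median widths of 630 bases in naked mole-rats and 689 in Damaraland mole-rats, against 624 and 733 for the near ones. The far members were the more often bound in the other liver libraries too, except for HNF4A of NMR30, with 0.987% in both classes. Without the members that had no active enhancer on their scaffold, the far ones were again the more often bound in 15 of 16 libraries, with the same exception.

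**Figure D4:**
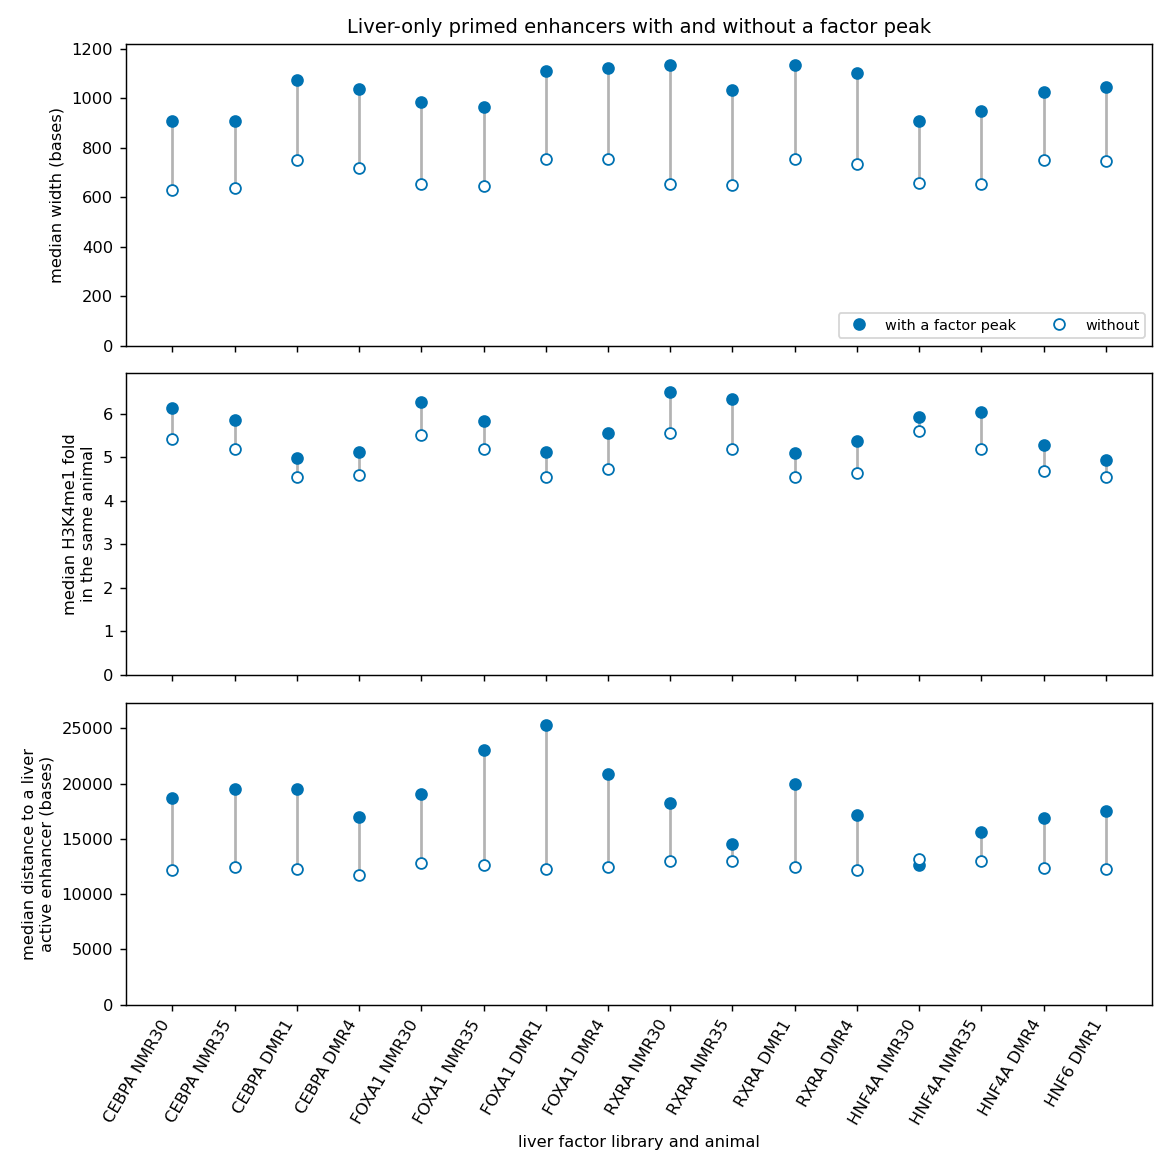
Median width in bases (top), median H3K4me1 fold in the same animal (middle) and median distance in bases to a liver active enhancer (bottom) of liver-only primed enhancers with a factor peak (filled) and without one (open), in 16 liver factor libraries. Filled points lie higher in all libraries of the upper and middle panels and in 15 of 16 of the lower one, the exception being HNF4A of NMR30.

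Factor summits, the highest points of the peaks, gathered towards the middle of the members. Summits spread evenly would have a median distance from the centre of 50% of the half-width. In members the median was 34.3% for RXRA in DMR4, the most central of the 16 liver libraries, and 45.6% for HNF4A in NMR30, the least central. CEBPA had 41.3% in NMR30, 40.4% in NMR35, 38.5% in DMR1 and 37.4% in DMR4, and FOXA1 41.6%, 40.02%, 38.4% and 37.7%. This was not particular to members: in liver-only active enhancers CEBPA had 42.4%, 42.6%, 42.0% and 39.8% in the same animals. TBX5 was at 47.3%. In bases, CEBPA summits lay a median of 183.5 from the centre in NMR30 and 189 in DMR4, and 249 and 279 from the H3K4me1 summit of the same animal, where H3K4me1 had one in the region.

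Factor peaks in members were above the median of their own list in fold for CEBPA: 6.23 against 4.53 over all peaks in NMR30, 5.90 against 4.67 in NMR35, 5.13 against 4.44 in DMR1 and 7.25 against 6.08 in DMR4. In liver-only active enhancers the medians were 7.40, 6.88, 5.64 and 8.82. RXRA in DMR4 was the only one of the 16 liver libraries in which peaks in members had a lower median than the list, at 5.98 against 6.54. TBX5 peaks in members had 4.13 against 4.14.

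**Figure D5:**
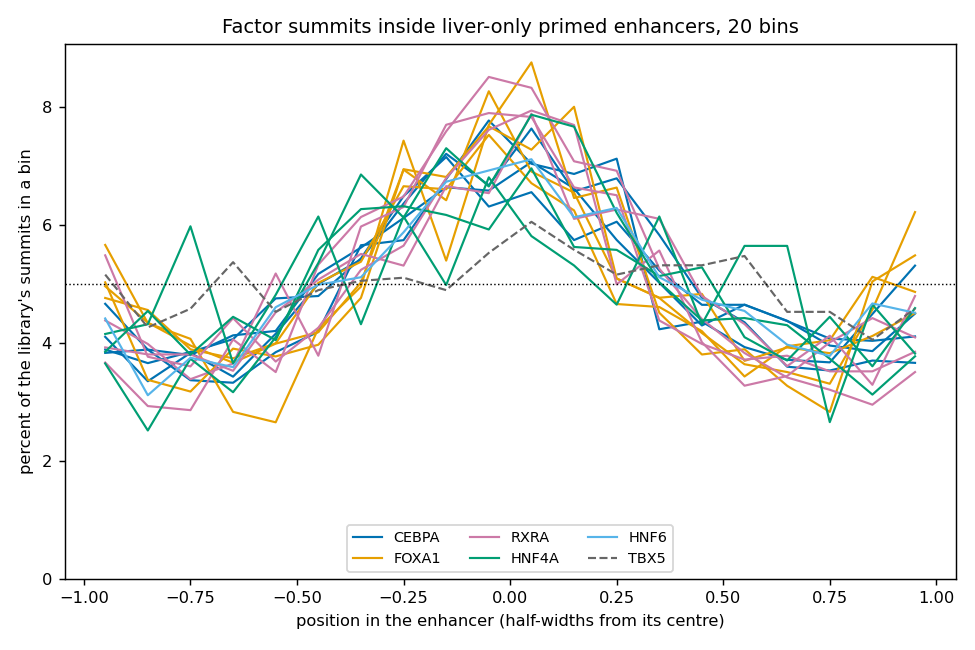
Percent of each library's factor summits (vertical axis) in 20 bins along liver-only primed enhancers, from edge to edge in half-widths from the centre (horizontal axis), 1 line per library. The 16 liver libraries (solid) mostly rise at the centre, with a median distance of 34.3% to 45.6% of the half-width. TBX5 (dashed) is flatter at 47.3%, and the dotted line marks an even spread. Some libraries rise again at the edges, as FOXA1 of DMR4 does, with 5.66% and 5.49% in the outermost bins.

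Single members are named by position. The strongest had a peak summit in all liver H3K4me1 libraries of the species, and they were chosen by their mean fold. In naked mole-rats (build HetGla_1.0) the highest was JH166403.1:1705288-1708285, of 2998 bases, with folds of 10.9 in NMR30, 11.8 in NMR31, 21.2 in NMR32, 15.8 in NMR34 and 16.0 in NMR35. It had CEBPA peaks in both animals and FOXA1 in NMR35. Liver H3K27ac, liver H3K4me3 and heart H3K4me1 each had a peak there in at least 1 library. NMR32 was the high animal, and the nearest active enhancer was 4539 bases away. The next, JH168282.1:114873-117032, had a mean of 14.0 ± 2.38 (SD, n = 5), and the third, JH168365.1:1054109-1057131, one of 13.7 ± 5.51, the latter overlapping an active enhancer by less than the share the rule asks for. Among the 11848 members with a summit in every liver H3K4me1 library, the 1 nearest the median fold was JH170564.1:420437-421527. It had a mean fold of 6.08 ± 1.58, no factor peak and an active enhancer 270053 bases away. Heart H3K4me1 had a peak there in at least 1 library. Liver H3K27ac had one at JH168282.1:114873-117032 and at JH168365.1:1054109-1057131, and liver H3K4me3 at the latter.

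Among naked mole-rat members bound in all 8 factor libraries, the one with the highest mean fold was JH167404.1:78410-82035. Its H3K4me1 folds were 10.3 in NMR30, 7.93 in NMR31, 9.39 in NMR32, 18.1 in NMR34 and 14.2 in NMR35. It had a liver H3K27ac peak in at least 1 library and an active enhancer 31970 bases away. JH174177.1:1721389-1723334 came next, with a mean of 9.18 ± 1.47. Liver H3K27ac and liver H3K4me3 each had a peak there in at least 1 library. Both members lay above 6.08, the median of mean folds over members with a summit in every library, in each animal.

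In Damaraland mole-rats (build DMR_v1.0) the strongest member was KN122106.1:14113543-14116753, with folds of 10.9 in DMR1, 9.60 in DMR2, 12.7 in DMR3, 11.2 in DMR4 and 20.2 in DMR6, the female. CEBPA, HNF4A and RXRA of DMR4 had peaks there. Liver H3K27ac, heart H3K27ac and heart H3K4me1 each had a peak there in at least 1 library. KN120636.1:7055038-7056650 followed with 12.9 ± 1.95 and KN121930.1:9176935-9178664 with 12.2 ± 6.14 (SD, n = 5). Liver H3K27ac had a peak in at least 1 library at both, and heart H3K4me1 at the former. Among members with a summit in every library, the 1 nearest the median, KN124137.1:474020-475333, had 5.36 ± 1.64 and no factor peak. It had a liver H3K27ac peak in at least 1 library.

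KN120639.1:477539-479339, of 1801 bases, was bound in all 8 Damaraland mole-rat factor libraries, that is by CEBPA, FOXA1 and RXRA in both animals, by HNF6 in DMR1 and by HNF4A in DMR4. It carried no peak of another mark in any library and lay 383421 bases from the nearest active enhancer. Its H3K4me1 folds were 8.58 in DMR1, 8.77 in DMR2, 10.3 in DMR3, 6.62 in DMR4 and 6.68 in DMR6. All lay above 5.36, the median of mean folds over members with a summit in every library. The second such member, KN124851.1:9113212-9114860, had an H3K4me1 peak in 4 of the 5 libraries, with a mean fold of 5.48 ± 0.79 (n = 4). Heart H3K4me3 had a peak there in at least 1 library.

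In guinea pigs (build Cavpor3.0) DS562864.1:206912-210042 was the strongest, with folds of 20.0, 7.27 and 13.4 in the 3 animals and no peak of another mark in any library. DS562908.1:7332152-7334082 had 13.3 ± 5.83 and DS562906.1:8356560-8358388 had 12.2 ± 2.38 (SD, n = 3), both with liver H3K27ac in at least 1 library. The former had a heart H3K27ac peak as well. Among members with a summit in every library, the 1 nearest the median, DS562894.1:12440267-12441025, had 5.05 ± 0.58. Heart H3K4me1 had a peak there in at least 1 library. In this species too the strongest members spread widely between animals.

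In mice (build GRCm38) the strongest member, chr11:104058118-104061489, had folds of 11.4 in 85920, 6.35 in 85921, 11.3 in 85923 and 27.1 in 85924. It had a liver H3K27ac peak in at least 1 library. At chr1:181475417-181476270 the folds were 9.51, 5.64, 11.3 and 29.2, with no other mark in any library. Mouse 85924 was by far the highest animal at both. The second by mean fold, chr9:42749642-42752020, was more even, with 9.80, 13.3, 15.2 and 17.7, and lay 75708 bases from an active enhancer. Liver H3K27ac and heart H3K4me1 each had a peak there in at least 1 library. Among members with a summit in every library, the 1 nearest the median, chr6:72261149-72262232, had 6.15 ± 1.94 (SD, n = 4). Heart H3K27ac and heart H3K4me1 each had a peak there in at least 1 library.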

How the data were processed

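Peaks were taken as deposited, 1 list per library, in which the authors gave each peak a position, a score, a fold (a linear ratio over background), a −log10 p-value, a −log10 q-value and a summit offset. MACS2 is named in the submitters' processing notes, with no version. Builds were named by the deposited histone files, the factor files name only the species, and the same build was assumed from their matching scaffold names. Neither aligner nor read depth is given in the sources used here, and a deeper library yields more peaks. The deposited score, 10 times the −log10 q, was not analysed further, and the −log10 p-value likewise; the deposited −log10 q-value served only as a filter and the fold as a description, since neither is normalised across libraries.

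Consensus regions merged overlapping or touching peaks shared by at least 2 libraries. Computation used Python 3.11.15, NumPy 2.4.6 and SciPy 1.17.1, plots Matplotlib 3.10.9. On 6000 simulated regions with known classes the procedure recovered 100% of the members, and 1.18% of the regions it called members were false. Each region simulated as marked had a peak in all 4 libraries of its group. These rates therefore do not cover regions seen in only some libraries, as many members were. The members and comparison sets were chosen with earlier results of these data known. Factor shares were compared within animals (the libraries of an animal were paired by its own name in the labels, since both region sets were read in the same libraries), with two-sided exact sign-flip tests over 4 animals and Benjamini-Hochberg adjustment over 3 comparisons. Named regions were, per species, the 3 with the highest mean fold among those with a summit in every liver H3K4me1 library. The 1 nearest the median fold of that same set was also named. Per mole-rat the 2 bound in most factor libraries were added, ties going to the higher mean fold. Alternatives were another overlap, a stricter q, a stricter consensus, exclusion by single libraries, long scaffolds and leaving out each library, animal or factor. The 35 input samples, the 9 chromosome conformation samples, 1 of them with labels of different species and left unassigned, and gene and sequence annotation were not analysed here. Whether libraries of an animal came from separate tissue pieces is not stated, so the spread measured is that between animals.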

Additional observations from a re-analysis of the deposited data

Results flagged for a closer look

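Mouse 85924 had a median H3K4me1 fold of 6.86 in liver-only primed enhancers, far above the other 3 mice, which lay between 4.75 and 4.94. Its list was also the longest of the mouse liver H3K4me1 lists, with 113889 peaks, and its median fold over all peaks was 6.51. Without it the mean of the library medians was 4.90, against 5.36 with it. In a group of this size chance alone sets a sample apart in about 1 of 20 cases.

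In naked mole-rats, the liver H3K4me3 list of NMR30 overlapped 8.68% of the liver-only primed enhancers, far above the other 4 libraries. That list had 253457 peaks. The part of the list's length was not tested.

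RXRA had ratios of opposite sign in the mole-rats in 1 comparison. Other ratios differed between the species without changing sign, some by more. For CEBPA over heart-only primed enhancers the mean log2 ratio was 2.17 in naked and 3.47 in Damaraland mole-rats (n = 2 each). The RXRA share in liver-only primed enhancers over that in primed enhancers also found in heart was below 1 in both naked mole-rats, with a mean log2 ratio of -0.22 ± 0.06 (SD, n = 2). It was above 1 in both Damaraland mole-rats, at 0.45 ± 0.17 (n = 2). This RXRA difference was 0.67 on the log2 scale and was not tested. Per kilobase, the naked mole-rat libraries moved above 1 as well, with 0.03002 against 0.0268 summits in NMR30 and 0.0620 against 0.0600 in NMR35.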

How the results depend on the processing

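The width and fold ratios stayed below 0 in 58 of 58 runs, and the factor ratios kept their direction in 48 of 48. Counts, widths, folds and distances have no direction to change. Of 343 alternative values over 27 results, 280 kept their call, or stayed within 1.5 times the count or within the SD between libraries. Another 61 moved beyond that, and 2 passed the threshold, in the run that ignored the pairing within animals. The paired factor tests could not change their call, since 4 animals allow no p below 0.13. Excluding a region for a peak in any single library lowered the number of members to 27443 in naked mole-rats, 25204 in Damaraland mole-rats, 16027 in guinea pigs and 10055 in mice, by construction. With peaks of −log10 q of at least 4, the log2 width ratio to active enhancers was -0.72, -0.66 and -0.70 in naked mole-rats, Damaraland mole-rat and guinea pig (against -0.84, -0.83 and -0.80), the naked mole-rat fold ratio was -0.29, and the median distances were 15344, 13853.5, 16818 and 17560.5 bases in the 4 species. A consensus of at least 3 libraries gave width ratios of -0.64, -0.63 and -0.61. Distances to any liver H3K27ac region without H3K4me3 were 10859, 10901, 10905.5 and 13215.5 bases, and on scaffolds reaching 1 Mb the naked mole-rat distance was 13876. Why these values moved was not tested.

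Leaving out 1 library at a time gave distances of 12562 to 14922.5 bases in naked mole-rats, 11886 to 14007 in Damaraland mole-rats, 13957.5 to 16509 in guinea pigs and 16042 to 17607 in mice, and width ratios of -0.78 to -0.72, -0.78 to -0.71 and -0.72 to -0.64 in the first 3. With 2 Damaraland mole-rat liver H3K4me3 libraries, neither could be left out. The factor ratios paired within animals ranged from -1.83 to -0.79 against active enhancers, from 2.17 to 3.19 against heart-only primed enhancers and from 0.40 to 0.85 against primed enhancers shared with heart. With no replicate block, an exact permutation of animal means gave the same ratios of -1.56 and 2.54 with p = 0.0286 (adjusted p = 0.0429) each, and p = 0.257 for the third. That permutation treated the shares of an animal as unpaired, though they came from the same libraries. Its p-values do not replace those of the paired test. Exclusion by any single library and the run without the NMR30 liver H3K4me3 library were chosen for the factor ratios after seeing the data. Peak lists without read numbers limit what can be said of regions near the peak threshold.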
